A study of Mus musculus with 8 samples.

Results

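Structural cluster 8 was the cluster of non-immune lung cells that carried Epcam, the gene of an adhesion protein of epithelial cells. Its members were the cells to which the authors' deposited cell table gives cluster number 8 among the structural cells of the lung grafts, under the name of Krt8-positive epithelium. There were 68 such cells of 20778 in all, of 5514 structural cells, and a further 32 cells were labelled type 2 pneumocytes and kept outside the structural clusters. All 8 samples were left lungs grafted into male C57BL/6 (B6) recipients, taken 1 month after transplantation without any immunosuppression. Donors were either B6 mice (B6→B6, syngeneic, n = 5) or mice of the C57BL/6-Tg(HLA-A2.1)1Enge strain of The Jackson Laboratory, which carry a human HLA-A2.1 transgene on the B6 background (HLA→B6, the model of bronchiolitis obliterans syndrome, n = 3). Dissociated graft cells (10000 loaded per graft) were measured by droplet-based 3′ single-cell RNA sequencing, in which each captured RNA molecule is counted by its unique molecular identifier (UMI). Each sample was 1 graft, and the mouse was the replicate throughout.

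The epithelium of the lung has an alveolar and an airway part. In alveoli, flat type 1 pneumocytes form the gas exchange surface and cuboidal type 2 pneumocytes make surfactant and can give rise to type 1 cells. In mouse airways, club cells secrete protective proteins and ciliated cells move mucus, and basal, goblet, neuroendocrine, tuft and ionocyte cells are rarer. Keratins 8 and 18 fill simple epithelia of all these kinds, and high Krt8 also marks alveolar cells in transit between the type 2 and type 1 state after injury.

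Cell barcodes had to be examined before any level was read, because many members carried the same 16-base droplet barcode as a cell of another mouse. Of the 68 cells, 23 (33.8%) did so, against 3.08% of the other 5446 structural cells, 2.62% of 5071 T cells, 15.9% of 2494 alveolar macrophages and 4.88% of all cells. The barcodes below are shown because each tied members from several mice together.
Carried in 4 mice, with 3 members: tactcataggcccgtt
Carried in 3 mice, with 2 members: ggaactttcctcatta
Carried in 3 mice, with 2 members: actatctagatcgata
Carried in 2 mice, with 2 members: ggtgcgttcaagccta
The first of these belonged to a type 2 pneumocyte of B6→B6 replicate 1 with 7363 UMIs, and to members of B6→B6 replicate 2 (597 UMIs), B6→B6 replicate 3 (425 UMIs) and HLA→B6 replicate 2 (711 UMIs). The second belonged to a type 2 pneumocyte of B6→B6 replicate 3 with 11578 UMIs and to members of B6→B6 replicates 1 and 2 with 525 and 477 UMIs. The fourth was carried only by 2 members, with 506 UMIs in B6→B6 replicate 1 and 537 UMIs in replicate 2.

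In 19 of the 23 cells, the barcode was that of a type 2 pneumocyte of another mouse, and these 19 cells used the barcodes of 11 of the 32 type 2 pneumocytes. In all 19 the type 2 pneumocyte was the deeper cell, by 9.67 to 88.2 times (median 12.3 times). The members held 57 to 711 UMIs and the type 2 pneumocytes 4888 to 11578. A median 97.5% of the UMIs of such a member (range 70.2% to 99.4%) lay in genes that were also detected in the type 2 pneumocyte with its barcode. The correlation of log expression over all 17921 genes, given as a description of 2 cells of unequal depth that share many abundant genes, was 0.155 to 0.575 (median 0.491). It was higher with the cell of the same barcode than with any other type 2 pneumocyte of that mouse in 19 of 19 cells, and the best of the others reached a median of 0.375. Sftpc, the gene of surfactant protein C, made up a median 35.1% of the UMIs of these members and 30.6% of those of the type 2 pneumocytes. The type 2 pneumocytes with the lowest Sftpc share, 6.97% and 17.5%, were matched by members at 8.60%, 9.33% and 19.8%. The type 2 pneumocyte belonged to B6→B6 replicate 1 in 15 of the 19 cases and to B6→B6 replicate 3 in 4. Of the other 4 cells, 2 shared a barcode with each other, 1 (686 UMIs) with 2 myeloid cells and 1 (1822 UMIs) with a B cell.

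**Figure D1:**
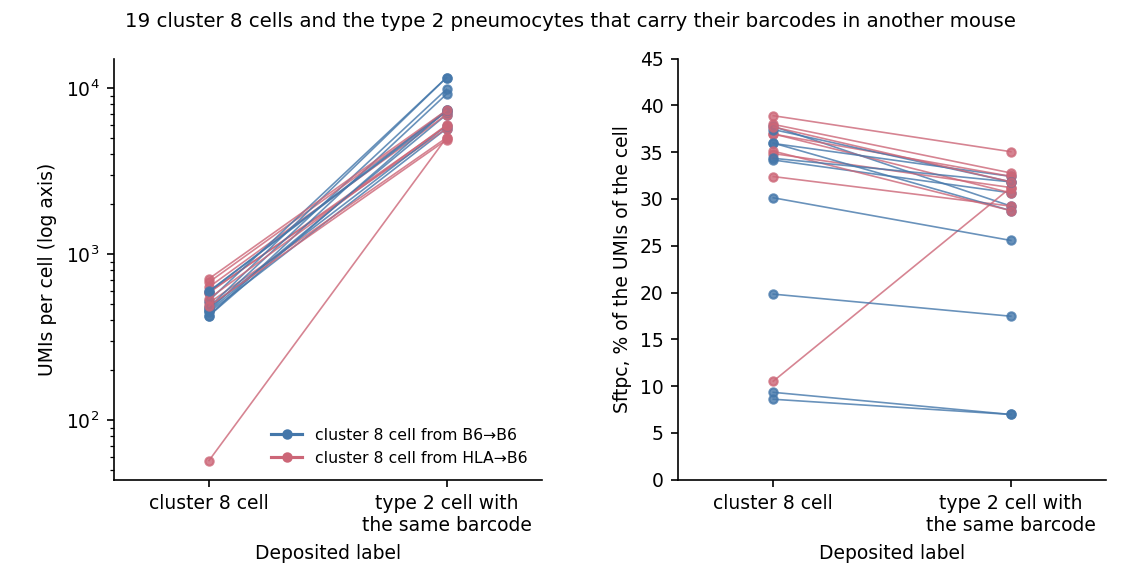
UMIs per cell (left, log axis) and Sftpc as a percentage of the UMIs of the cell (right) for the 19 members whose barcode was carried by a type 2 pneumocyte of another mouse, each joined by a line to that cell and coloured by the group of the member. The members sat at 57 to 711 UMIs and their partners at 4888 to 11578, while the Sftpc percentages ran side by side except in the member with 57 UMIs.

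The barcode-sharing members were unevenly spread. They were 5 of 7 cells in B6→B6 replicate 1, 7 of 7 in replicate 2, 1 of 8 in replicate 3, 0 of 11 in replicate 4 and 0 of 2 in replicate 5. In the HLA→B6 group they were 1 of 17, 8 of 9 and 1 of 7 in replicates 1, 2 and 3. Their part in the results was not tested, so levels are given for all 68 members and, for the marker lists, sets and group comparisons, also for the 45 that share no barcode.

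Members were shallow. Their median was 661 UMIs and 407 genes per cell, against 1129 UMIs in other structural cells and 6600 UMIs in type 2 pneumocytes, and 50 of the 68 reached 500 UMIs. The deepest held 15030 UMIs and the shallowest 57. The authors' stated minimum was 200 UMIs, and 17 of all 20778 cells were below it in the deposited counts. Scrublet marked none of the 68 members, none of the 32 type 2 pneumocytes and 256 of all cells (1.23%) as doublets.

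The markers matched the epithelial label. Epcam (chromosome 17, 87635979 to 87651129, plus strand, GRCm38) was found in 24 of the 68 cells and in every mouse, in 2 of 7, 1 of 7, 4 of 8, 3 of 11 and 1 of 2 cells of the B6→B6 grafts (in the order of their replicate numbers) and in 8 of 17, 3 of 9 and 2 of 7 cells of the HLA→B6 grafts. In B6→B6 replicate 2 and HLA→B6 replicate 2, each cell with Epcam was a barcode-sharing member. Leaving out such members left no cell with Epcam in these mice. At 500 UMIs per cell, with the shallower cells left out, Epcam was detected in 23.4% of members, 0.0985% of other structural cells and 0.649% of T cells, a type without this gene (35.3%, 0.220% and 1.87% at full depth, with median depths of 661, 1129 and 1648 UMIs). Summed over cells, its level was 439 UMIs per 1000000 UMIs (CPM), against 1.39 CPM in the other structural cells and 135 CPM in type 2 pneumocytes, and 437 CPM in the 45 members without a shared barcode.

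The other general epithelial genes had the same direction as Epcam. All 15 genes of the epithelial list were detected and all 15 were higher in members than in the other structural cells, with a summed level of 9492 CPM against 4.33 to 231 CPM in each of the 10 other clusters and 194 CPM in T cells. The median ratio to other structural cells was 29.7 (both levels raised by 10 CPM), where the 832 genes abundant enough in members to be ranked had a median of 1.53. These 832 genes were chosen by their counts in members, which favours genes high there. The list was not filtered in this way, so the 2 medians are not on an equal footing. Wfdc2, a secreted protease inhibitor of lung epithelium, was found in 42 of 68 cells, Cldn3, a tight junction protein, in 24, Krt18 in 25, Krt19 in 25, Krt7 in 27 and Nkx2-1, the transcription factor that specifies lung epithelium, in 19. Each cell had at least 1 of the 15 genes and 43 had 3 or more, against 6 of 5446 other structural cells and 4 of 5071 T cells. These are levels in clusters that were made from the same counts, so none of the differences between clusters was tested.

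Genes of other lineages were low. The endothelial list summed to 611 CPM in members against 14263 CPM in the other structural cells, with 0 of 12 genes higher in members and Kdr, a receptor that defines endothelium, at 0. The leukocyte list summed to 146 CPM against 8021 CPM in T cells, and Ptprc, the common leukocyte antigen, had 1 UMI. The red blood cell list stood at 172 CPM against 196875 CPM in the other structural cells, the platelet list at 17.2 CPM, the smooth muscle or pericyte list at 17.2 CPM and the fibroblast list at 353 CPM. In the 45 members without a shared barcode these lists stood at 612 (endothelial), 155 (leukocyte), 194 (red blood cell), 19.4 (platelet), 19.4 (smooth muscle or pericyte) and 291 CPM (fibroblast). Clusters 1, 2 and 7, to which the deposited table gives an epithelial name too, did not share the epithelial genes. There, 0.148%, 0% and 1.09% of cells had 3 or more epithelial genes, and 93.2%, 98.5% and 30.4% had 3 or more endothelial genes.

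**Figure D2:**
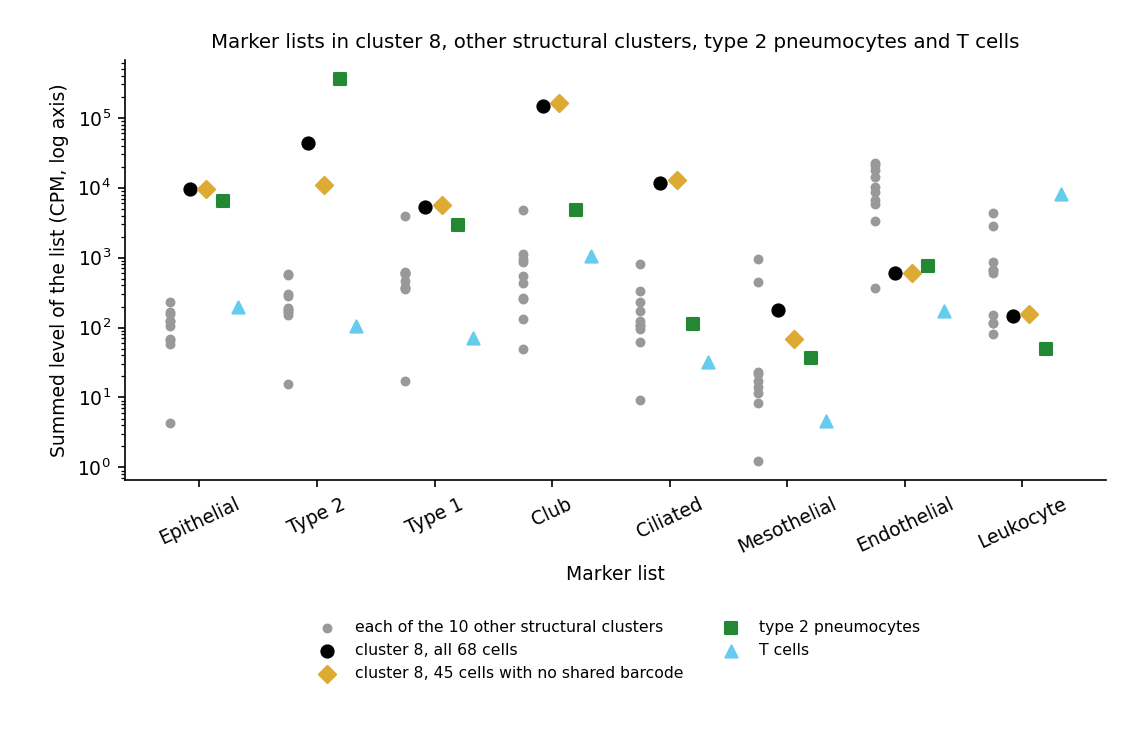
Summed level of 8 marker lists in CPM (log axis) in all 68 members, in the 45 members with no shared barcode, in each of the 10 other structural clusters, in type 2 pneumocytes and in T cells. The epithelial list was at 9492 CPM in members and at most 231 CPM in another structural cluster, and leaving out shared barcodes moved the type 2 list from 43150 to 10788 CPM.

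Members were not 1 epithelial type. Each cell was assigned to the type 1, type 2, club or ciliated marker list of which it expressed at least 5 genes, and to the list with the larger share of its genes where it reached 2 lists, a rule set after the cells had been seen. By this count 26 cells (38.2%, exact 95% binomial interval 26.7% to 50.8%, counting error only) carried type 2 markers, 14 (20.6%) type 1 markers, 11 (16.2%) ciliated markers, 3 (4.41%) club markers and 14 (20.6%) reached no list. Among the 45 cells without a shared barcode the counts were 6, 14, 11, 3 and 11. All the cells lost came from the type 2 set (20) and from the cells with no set (3). The sets are ranges of a count and not types: 3, 4, 1 and 1 cells of the type 2, type 1, ciliated and club sets stood exactly at 5 genes, and 11 cells reached 5 genes of 2 lists, 8 of them in the ciliated set.

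**Figure D3:**
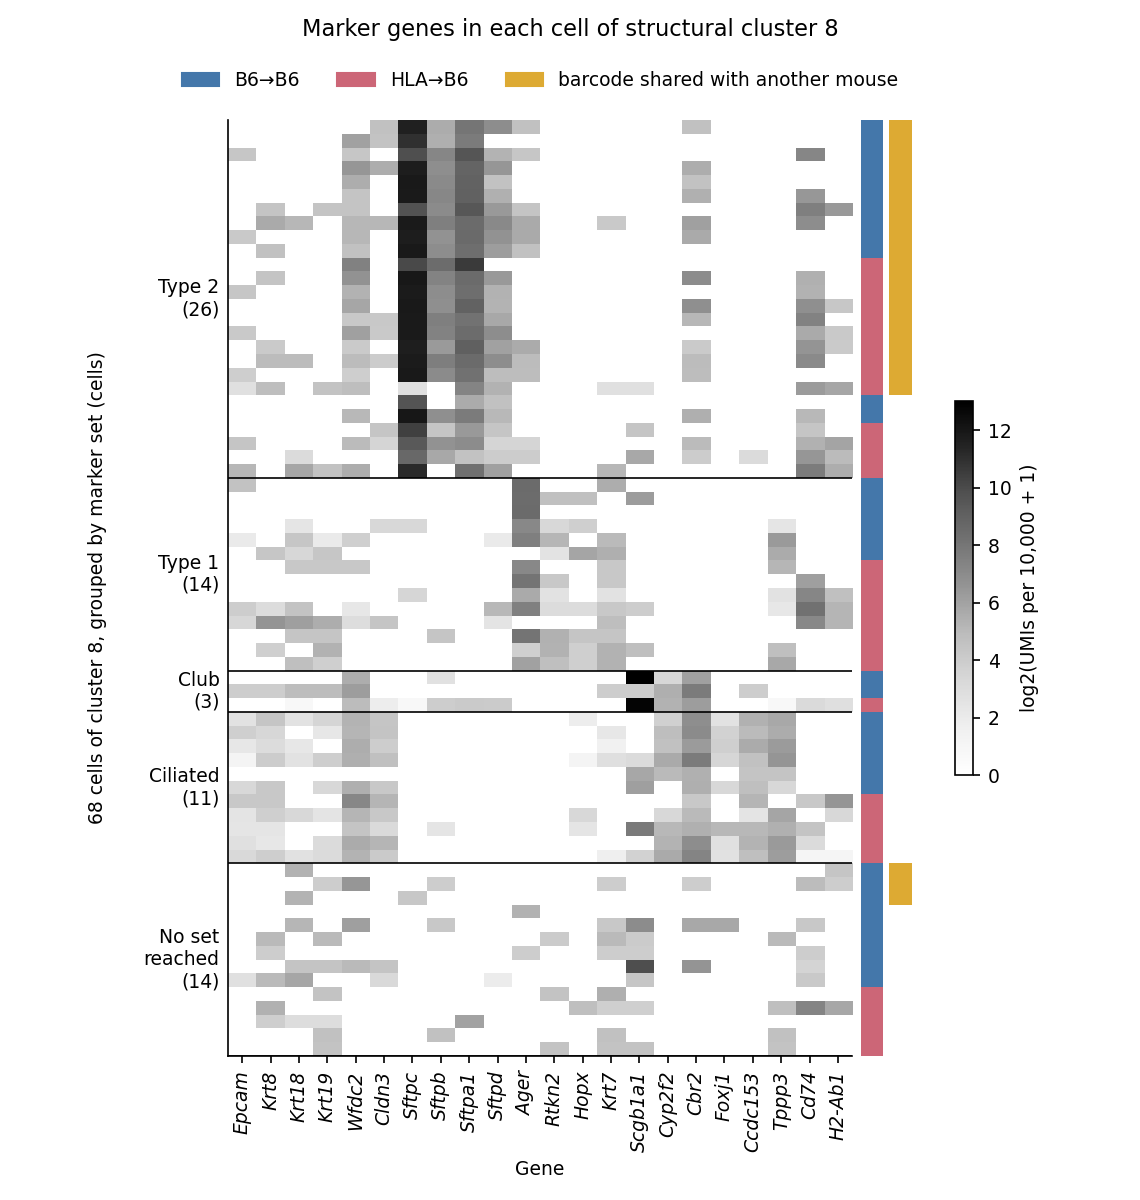
Level of 22 genes in each of the 68 members, as log2 of UMIs per 10,000 plus 1 in grey, with cells in rows grouped by marker set and bars at the right for the graft group and for a shared barcode. Sftpc filled the type 2 set, Ager most of the type 1 set and Ccdc153 the ciliated set, and all but 3 of the cells with a shared barcode were in the type 2 set.

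The type 2 set was shallow and close to pure in its markers. Its 26 cells held a median 532.5 UMIs and a median 8.5 of the 15 type 2 genes, with medians of 1 type 1 gene, 1 club gene and 0 ciliated genes. Sftpc (chromosome 14, 70520949 to 70524081, minus strand) was present in all 26, at 236201 CPM. The 20 cells with a shared barcode had 270219 CPM of Sftpc, 38043 CPM of Sftpa1 and 11143 CPM of Sftpb, and the 32 type 2 pneumocytes had 274983, 36235 and 16948 CPM. The 6 cells without a shared barcode had 158884, 13653 and 5540 CPM of the same genes. Sftpa1 encodes the host defense surfactant protein A, and Sftpb the surfactant protein B that spreads surfactant lipid. The 6 cells with no shared barcode were lower in all 3 surfactant genes than both other groups. Krt8 had 0 UMIs in these 6 cells and 14 UMIs in 7 of the 20 cells with a shared barcode.

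The type 1 set held 14 cells of 5 mice, with a median of 765 UMIs and 7 of the 14 type 1 genes. None shared a barcode, and the set made up 31.1% of the 45 remaining cells. Ager (chromosome 17, 34597862 to 34600936, plus strand), the receptor for advanced glycation end products that coats the base of type 1 cells, was found in 12 of the 14, at 11337 CPM, and at 1209 CPM in the type 2 set and 0 CPM in the ciliated set. Krt7 was in 11 of the 14 cells. Over all 68 members, Rtkn2, a gene of the type 1 list, stood at 250 CPM against 2.44 CPM in other structural cells and 0 UMIs in type 2 pneumocytes. Aqp5, the water channel of the alveolar surface, was at 491 CPM in members, 3.14 CPM in other structural cells and 546 CPM in type 2 pneumocytes. Type 1 markers are shared with endothelium in part: Emp2 was at 413 CPM in members and 425 CPM in other structural cells, and Clic5 at 172 and 267 CPM. Of the 14 cells, 2 from HLA→B6 replicate 1 also had 9 and 5 endothelial genes.

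The ciliated set held 11 cells of 547 to 9493 UMIs. Their median was 3981 UMIs and 1943 genes, and they carried 38.7% of all UMIs of the cluster. They came from 3 mice, 4 from B6→B6 replicate 3, 2 from B6→B6 replicate 4 and 5 from HLA→B6 replicate 1. The median cell had 18 of the 22 ciliated genes, 5 club genes, 2 type 1 genes and 0 type 2 genes. Foxj1 (chromosome 11, 116330704 to 116335399, minus strand), the master regulator of motile cilia, was found in 8 of the 11 and in 1 further member. Of the other genes of the ciliated list, Ccdc153 was at 1213 CPM over the 68 cells, Dynlrb2, a dynein light chain, at 929 CPM and Rsph1, of the radial spoke head, at 482 CPM. The same 3 genes were at 0.581, 0.116 and 0.581 CPM in other structural cells. All 22 ciliated genes were detected in members, and all 22 were higher than in type 2 pneumocytes. Cyp2f2 and Cbr2, listed here as club genes, were found in 9 and 11 of the 11 ciliated cells.

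The club set held 3 cells. Scgb1a1 (chromosome 19, 9083636 to 9087958, minus strand), the secretoglobin that club cells release in bulk, gave 10676 of the 15030 UMIs (71.0%) of a cell of HLA→B6 replicate 1 and 4651 of the 5587 UMIs (83.2%) of a cell of B6→B6 replicate 1. These 2 cells held 98.6% of the 15537 Scgb1a1 UMIs of the cluster. Without them Scgb1a1 fell from 133709 to 2197 CPM and the club list from 145912 to 13235 CPM. The third cell, from B6→B6 replicate 5, had 1 Scgb1a1 UMI, 5 club genes and 6 ciliated genes. A UMI of Scgb1a1 alone does not mark a club cell in these data: at 500 UMIs per cell it was seen in 27.9% of members, 10.2% of other structural cells and 7.98% of T cells (30.9%, 15.4% and 12.0% at full depth).

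The 14 cells that reached no list had a median 607.5 UMIs, 3 epithelial genes and 1 gene each of the type 2, club, ciliated and endothelial lists. Their largest cell, of 3577 UMIs in B6→B6 replicate 4, had 11 UMIs of Krt8 and 7 epithelial genes. The 2 members that shared a barcode with each other had 3 and 4 of the 13 mesothelial genes, and without shared barcodes the mesothelial list fell from 181 to 68 CPM, against 948 CPM in the structural cluster where it was highest.

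Rarer airway types were not detected as groups at this depth. The basal, goblet, neuroendocrine, tuft and ionocyte lists had 1 of 5, 0 of 3, 1 of 5, 2 of 3 and 1 of 4 measured genes with a UMI, at 25.8, 0, 51.6, 77.5 and 34.4 CPM, and at 0, 0, 58.3, 77.7 and 19.4 CPM without shared barcodes. Trp63, Krt14, Muc5b and Calca were at 0 UMIs in members. A count of 0 in the 116200 UMIs of the cluster allows up to 25.8 CPM, and it limits counting error only.

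Krt8 (chromosome 15, 101996698 to 102004482, minus strand), from which the cluster has its deposited name, was found in 27 of 68 cells (39.7%) and in 7 of 8 mice. At 500 UMIs per cell it was in 31.6% of members, 0.0555% of other structural cells and 0.150% of T cells. By replicate number, it was found in 0 of 7, 2 of 7, 5 of 8, 4 of 11 and 2 of 2 cells of the B6→B6 grafts and in 9 of 17, 3 of 9 and 2 of 7 cells of the HLA→B6 grafts. In B6→B6 replicate 2 and HLA→B6 replicate 2, each cell with Krt8 was a barcode-sharing member. Its level was 1153 CPM in members, 203 CPM in type 2 pneumocytes and 1.39 CPM in other structural cells, and 1165 CPM without shared barcodes. By set it was at 2315 CPM in the type 1 set, 1555 CPM in the cells with no set, 1135 CPM in the ciliated set, 846 CPM in the type 2 set and 46.9 CPM in the club set. In the type 1 set 42 of 49 Krt8 UMIs came from 1 cell of HLA→B6 replicate 1 with 4397 UMIs, 12 of 15 epithelial genes, 5 type 1 genes and 0 UMIs of Ager. Of the transitional epithelial list, 9 of 10 genes were higher in members than in the other structural cells. So were 620 of the 832 ranked genes, which were chosen by their counts in members. Its summed level was 4139 CPM (4292 CPM without shared barcodes) against 1367 CPM there and 1476 CPM in type 2 pneumocytes. Sfn was at 448 CPM and Lgals3 at 568 CPM, against 58.7 and 90.3 CPM in type 2 pneumocytes. Cdkn1a, the cell cycle inhibitor, was the exception, at 275 CPM against 1233 CPM in other structural cells.

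Among the 832 ranked genes, the 25 with the largest ratio to other structural cells included genes of the same 4 marker lists. Sftpc, Sftpa1, Sftpd, Cxcl15 and Sftpb are of the type 2 list, Ager of the type 1 list, Cbr2, Scgb1a1 and Cyp2f2 of the club list, and Ccdc153, Dynlrb2, Tmem212, 1110017D15Rik, Sec14l3, Fam183b and Rsph1 of the ciliated list. Wfdc2, Krt8, Cldn3, Krt18 and Krt19 are general epithelial genes, and Chchd10, Cyp2s1, Tspan1 and Riiad1 are in no list. The 3 club genes do not separately mark club cells here. The ciliated set held 565 of the 777 Cbr2 UMIs and 153 of the 220 Cyp2f2 UMIs, and 2 cells held 98.6% of the Scgb1a1 UMIs. The ratios ran from 375 for Sftpc (33675 against 79.9 CPM) to 46.5 for Rsph1. Sftpc fell to 7846 CPM without shared barcodes, and Sftpa1 from 4639 to 990 CPM, whereas Ager (2263 and 2389 CPM) and Ccdc153 (1213 and 1369 CPM) did not fall.

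Against the 32 type 2 pneumocytes, members were higher in airway genes and lower in surfactant genes. The 10 genes with the largest ratio in members were Scgb1a1 (866), Ccdc153, Cyp2f2, Tmem212, 1110017D15Rik, Fam183b, Tppp3, Aldh3b1, Riiad1 and Rsph1 (49.2). The place of Scgb1a1 rests on 2 cells, without which it was at 2197 CPM against 144 CPM in type 2 pneumocytes. Ccdc153 had 141 UMIs in members and 0 in type 2 pneumocytes, at least 89.6-fold higher with 3 UMIs over the 32 cells taken as the limit. In the other direction stood Lyz1, Enpep, Slc34a2, Mlc1, Lcn2, Mme, Napsa, Chil1, Sftpb and Egfl6. Slc34a2, the phosphate carrier of type 2 cells, was at 181 CPM in members, 48.6 CPM in members without a shared barcode and 2835 CPM in type 2 pneumocytes. Lcn2, the iron-binding defense protein lipocalin 2, was at 86.1, 29.1 and 1214 CPM in the same order. Lyz1 had 0 UMIs in members and 617 UMIs in 5 type 2 pneumocytes of 3 mice, at least 108-fold higher there, but it shares sequence with its near-identical neighbour Lyz2, so that the split of reads between them is uncertain. No type 2 gene of 15 was higher in members than in type 2 pneumocytes.

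Pathway lists differed among themselves. All 12 tight junction and adhesion genes were detected, and the list stood at 2797 CPM in members (2932 CPM without shared barcodes), 407 CPM in other structural cells and 1612 CPM in type 2 pneumocytes. Of its genes, 10 were higher than in the other structural cells and 11 higher than in type 2 pneumocytes. Of the 832 ranked genes, chosen by their counts in members, 620 and 644 were. The surfactant lipid list, of enzymes and carriers that make and store surfactant, stood at 2401 CPM in members, 1525 CPM without shared barcodes and 14677 CPM in type 2 pneumocytes, with 0 of 10 genes higher in members. The airway defense list was at 1420, 157 and 14786 CPM in members, other structural cells and type 2 pneumocytes, and at 534 CPM without shared barcodes. MHC class I genes, which present antigen to CD8+ T cells, were lower than in other structural cells in 10 of 10 cases (5241 CPM, or 5312 CPM without shared barcodes, against 14275 CPM) and summed to 5287 CPM in type 2 pneumocytes. The MHC class II list stood at 4484 CPM in members (3884 CPM without shared barcodes), 9509 CPM in other structural cells and 12510 CPM in type 2 pneumocytes. It ranged from 247 to 18616 CPM over the 10 other clusters. Of its 7 genes, 0 were higher in members than in the other structural cells or in type 2 pneumocytes. Genes of the interferon gamma response were at 465 CPM (466 CPM without shared barcodes) against 1461 CPM in the other structural cells, with Cxcl9, Cxcl10 and Cd274 at 0 UMIs. Immediate early genes, which dissociation of tissue can induce, were at 2513 CPM in members (2612 CPM without shared barcodes), 3912 CPM in other structural cells and 1819 CPM in type 2 pneumocytes.

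The share of members in the graft was compared between the groups. Of the structural cells they were 2.17%, 5.22%, 1.08%, 0.967% and 1.94% in the 5 B6→B6 grafts, by replicate number, and 0.851%, 1.29% and 1.85% in the 3 HLA→B6 grafts. The groups overlapped, with means of 2.28% ± 1.73 (SD, n = 5) and 1.33% ± 0.499 (SD, n = 3), and the difference did not pass its test (two-sided exact permutation p = 0.5, adjusted p = 0.75 over 3 shares). Leaving out B6→B6 replicate 2 moved the difference (HLA→B6 minus B6→B6) from -0.945 to -0.208 percentage points. Without barcode-sharing cells the means were 0.927% ± 0.722 and 0.865% ± 0.739 (exact permutation p = 0.839). Of all cells, members were 0.230% to 0.739% in B6→B6 and 0.260% to 0.562% in HLA→B6 (exact permutation p = 0.75, adjusted p = 0.75), and members plus type 2 pneumocytes were 0.230% to 1.69% and 0.273% to 0.562% (exact permutation p = 0.589, adjusted p = 0.75). With 5 against 3 mice the smallest p is 0.0179, and shares in a dissociated suspension also depend on how cells of each kind come free.

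The makeup by marker set also differed between mice. All 9 members of HLA→B6 replicate 2 and 6 of 7 of B6→B6 replicate 2 were of the type 2 set, whereas B6→B6 replicate 4 had none of that set and 4 type 1, 2 ciliated and 5 unassigned cells. HLA→B6 replicate 1 had 3 type 2, 5 type 1, 5 ciliated, 1 club and 3 unassigned cells. The mice rich in the type 2 set were those rich in shared barcodes, and without these cells B6→B6 replicate 2 had 0 members left and HLA→B6 replicate 2 had 1.

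**Figure D4:**
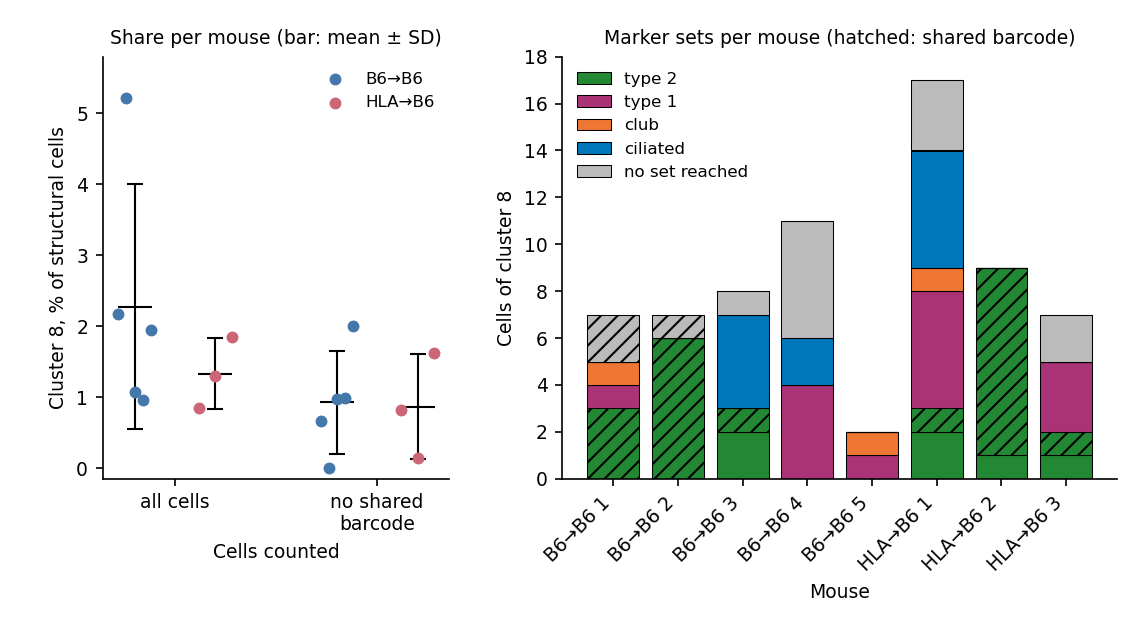
Left, members as a percentage of structural cells in each mouse, for all cells and without cells that share a barcode (points, mice; bars, mean ± SD; n = 5 B6→B6, n = 3 HLA→B6). Right, number of members per mouse in each marker set, with cells that share a barcode hatched: the groups overlapped on the left, and the hatched cells sat mostly in the type 2 sets of 3 mice.

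Gene expression in HLA→B6 and B6→B6 members was compared on UMI counts summed per mouse. The intended test needed 10 members per mouse, which only B6→B6 replicate 4 and HLA→B6 replicate 1 reached, so it could not be run. With at least 5 members per mouse, 4 B6→B6 and 3 HLA→B6 mice and 93 genes remained, and edgeR's quasi-likelihood test called 0 of them at a Benjamini-Hochberg adjusted p under 0.05 (0%). At an unadjusted p under 0.05 there were 0 genes with edgeR and 1 with DESeq2, which called 0 after adjustment. That gene was Cd74 (DESeq2 unadjusted p = 0.0462), the only 1 of the MHC class II list among the 93. Without barcode-sharing cells 2 mice per group and 318 genes remained, of which 0 were called and 7 had an unadjusted p under 0.05.

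The gene at the head of that last list was H2-Ab1, a chain of the MHC class II molecule that presents antigen to CD4+ T cells, with a log2 fold change of 7.70 (SE 1.6, edgeR unadjusted p = 0.000356, adjusted p = 0.113). Among the 45 members with no shared barcode, H2-Ab1 had 0 UMIs in 22 B6→B6 cells, which allows up to 13.6% of such cells to hold a UMI and sets no limit on cells that express the gene, and 66 UMIs in 11 of 23 HLA→B6 cells. The UMIs were 58 in 9 of 16 cells of HLA→B6 replicate 1, 4 in 1 of 1 cell of replicate 2 and 4 in 1 of 6 cells of replicate 3. At 1208 CPM it was at least 19.5-fold higher in the pooled HLA→B6 cells, with 3 UMIs over the pooled B6→B6 cells as the limit. This limit covers counting error in these pooled cells only, and neither the spread between mice nor their differing marker sets. Of these cells, 2 of the 22 B6→B6 and 4 of the 23 HLA→B6 cells were of the type 2 set. With barcode-sharing members kept, H2-Ab1 had 6 UMIs in 3 of 35 B6→B6 cells (109 CPM). In HLA→B6 it then had 79 UMIs in 15 of 33 cells (1289 CPM). In type 2 pneumocytes H2-Ab1 was at 1224 CPM in B6→B6 and 2083 CPM in HLA→B6. The fitted fold rests on a group at 0 and on a prior count.

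The invariant chain Cd74, which chaperones class II molecules, was at 4574 CPM in HLA→B6 and 248 CPM in B6→B6 members without a shared barcode. All 7 class II genes summed to 6690, 19274 and 7057 CPM in the HLA→B6 grafts, by replicate number (16, 1 and 6 cells), and to 0, 203, 743 and 0 CPM in B6→B6 grafts 1, 3, 4 and 5 (2, 7, 11 and 2 cells). The 2 groups did not overlap over these 7 mice, of which 3 had only 1 or 2 cells, and this pattern was seen first and not tested further. The mice also differed in their marker sets. By set, class II in the HLA→B6 cells was at 19768 (type 1), 18221 (type 2), 1300 (ciliated), 1530 (club) and 6470 CPM (no set). The ciliated set held 24952 of the 48329 B6→B6 UMIs and 19995 of the 54655 HLA→B6 UMIs. The part of this makeup in the pattern was not tested. Over all 68 members the 2 groups did overlap: 1622, 7542, 199, 743 and 0 CPM in the B6→B6 grafts against 6682, 12829 and 9738 CPM in the HLA→B6 grafts. In those, Cd74 had a log2 fold change of 1.83 (SE 1.04, edgeR adjusted p = 0.997), and without shared barcodes of 3.81 (SE 1.18, adjusted p = 0.639). Neither value passed the test.

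The direction was the same in each marker set that had cells in both groups, but the sets are parts of the same mice and not replicates. HLA→B6 replicate 1 gave 16 of the 23 HLA→B6 cells without a shared barcode and 331 of their 384 class II UMIs. In the type 1 set the class II genes had 0 UMIs in 6 B6→B6 cells and 244 UMIs in 6 of 8 HLA→B6 cells, with Cd74 at 82, 62, 31 and 4 UMIs in 4 cells of replicate 1, the last 2 being those with endothelial genes, and at 0 in the 3 cells of replicate 3. In the ciliated set there were 0 UMIs in 6 B6→B6 cells and 26 UMIs in 5 of 5 HLA→B6 cells, all of replicate 1. In the type 2 set there were 5 UMIs in 2 of 2 B6→B6 cells and 68 UMIs in 4 of 4 HLA→B6 cells. The type 2 pneumocytes themselves had 10829 CPM in B6→B6 (22 cells) and 16179 CPM in HLA→B6 (10 cells, all of replicate 1). T cells, taken here as a guide to free RNA, had 42.3 to 192 CPM per mouse in B6→B6 and 65.7 to 201 CPM in HLA→B6. They were deeper than members (median 1648 against 661 UMIs), so the level of free RNA in members may differ. H2-Ab1, H2-Aa, H2-Eb1 and Cd74 were on the authors' list for the removal of free RNA, as were Sftpc and Scgb1a1, and the part of that step in these values was not tested.

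**Figure D5:**
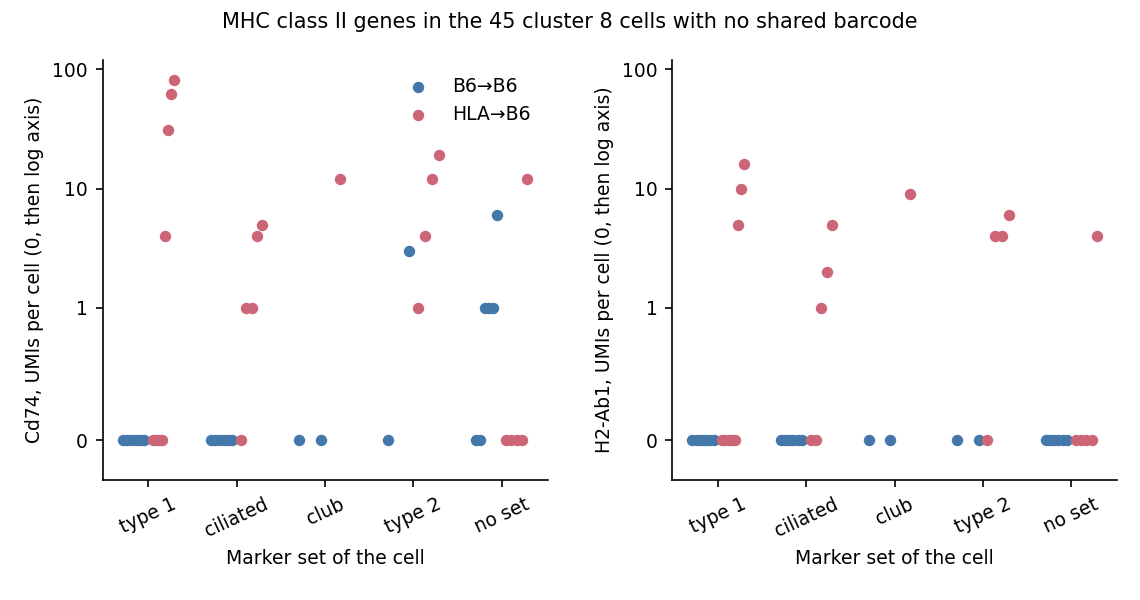
UMIs per cell of Cd74 (left) and H2-Ab1 (right), from 0 and then on a log axis, in the 45 members with no shared barcode, by marker set and graft group. H2-Ab1 was at 0 UMIs in all 22 B6→B6 cells and above 0 in 11 of 23 HLA→B6 cells, in each of the 5 columns.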

How the data were processed

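The deposited table holds whole UMI counts per gene and cell, which per the labels and the methods of the study the authors made with Cell Ranger on mm10 (GRCm38) and clustered with Seurat (no versions stated). The authors stated that they removed barcodes under 200 UMIs and genes in fewer than 3 cells, and free RNA with SoupX. The sources used here do not say on which side of SoupX the deposited counts lie. Cells, samples and clusters were taken from the deposited cell table, whose sample names match the labels while the cell names of HLA→B6 mice carry other numbers. Totals were 1669076 to 12445769 UMIs in 868 to 6544 cells per mouse, and members summed to 2801 to 49537 UMIs per mouse, which sets the precision of every level.

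Levels are UMIs of a gene or list per 1000000 UMIs of the summed cells (CPM). Shares at equal depth are the expected share after drawing 500 UMIs per cell, without shallower cells. Genes named beside list members were the 25 with the largest ratio (both CPM raised by 10) to other structural cells and 10 in each direction against type 2 pneumocytes, with at least 20 UMIs in the higher population, in at least 3 mice and 10% of its cells. Members and lists were chosen with earlier results of these data known. Shares were compared by an exact two-sided permutation of the mouse labels (56 splits) and adjusted by the Benjamini-Hochberg method. Summed counts per mouse were tested with edgeR 4.0.16 (quasi-likelihood, TMM, filterByExpr) and, as an alternative, DESeq2 1.42.0 in R 4.3.3, checked on simulated counts first. Doublets were called per mouse by Scrublet in scanpy 1.11.5 (expected rate 0.06). A cell that shared a barcode across mice was left out in the alternative, except where it was deeper than every other cell of that barcode by a factor of 5 or more. Gene positions are from GENCODE vM21, which held 98.8% of the 17921 gene names. Alternatives were another test, at least 500 UMIs per cell, no doublets, no shared barcodes, each mouse left out and replicate numbers as a block.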

Additional observations from a re-analysis of the deposited data

Results flagged for a closer look

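In the 5 B6→B6 mice, or the 4 with at least 5 members, 7 values stood farther from the rest of their group than Dixon's 95% limit allows, of 15 groups examined; chance alone gives about 1 in 20 groups, and several of the 7 are the same cells counted under a gene and under its list. B6→B6 replicate 2, where 7 of 7 members shared a barcode, was high in members among structural cells (5.22%), in the type 2 list (338547 CPM) and in Sftpc (266760 CPM). B6→B6 replicate 1 was high in members plus type 2 pneumocytes among all cells (1.69%), in the club list (546698 CPM) and in Scgb1a1 (538934 CPM), the last 2 through 1 cell. The same mouse was low in Krt8, at 0 CPM in 7 cells.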

How the results depend on the processing

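No share of members, and no gene, passed its test under any alternative. The difference in the share among all cells (HLA→B6 minus B6→B6, in percentage points) was -0.0520 and ran from -0.15 to 0.0285 with each mouse left out, changing sign when the first mouse of B6→B6 (0.0285) or of HLA→B6 (0.000593) was absent. It was 0.0467 without shared barcodes. The cause was not tested. The type 2 set fell from 26 to 15 cells with at least 500 UMIs and to 6 without shared barcodes, both by leaving cells out, and cells with no set rose from 14 to 22 when 6 genes of a list were required. Of the levels, the type 2 list was 70354 CPM without HLA→B6 replicate 1, 26081 CPM without HLA→B6 replicate 2 and 117108 CPM as a mean over mice. Without HLA→B6 replicate 1 the club list was 82040 CPM and the class II list 2850 CPM, and without B6→B6 replicate 3 the ciliated list was 7158 CPM (6591 CPM as a mean over mice). The fold change of Cd74 ran from 1.32 to 3.81 on the log2 scale (edgeR and DESeq2 adjusted p 0.424 to 1.0). Without a filter on low counts 9903 genes were tested and 0 called. The deviations of same-numbered mice had correlations of 0.0108, 0.675 and 0.0760 for replicates 1, 2 and 3. Some members of B6→B6 replicate 2 and HLA→B6 replicate 2, the pair with the highest value, carried the same barcodes. The main tests treated these 2 mice as independent. With the replicate number as a block, which for shares kept only pairs of replicates 1 to 3, the 3 differences in share were -1.49, -0.164 and -0.550. The last had an exact permutation p = 0.25, the smallest that 3 pairs can give. In the test of genes with this block 0 genes were called. Counting the levels and Cd74 values above, 153 recomputed values kept their direction and side of the threshold or, for counts of cells, stayed within 1.5 times, or, for levels, moved by less than 1 SD over mice, which is wide: the club list, 145912 CPM, was at 13235 CPM without the 2 cells richest in Scgb1a1. With 68 cells and a median of 661 UMIs, depth limits every set and share given here. The label of a cell as having no UMI of a gene holds for its depth only.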
